A study of Mus musculus with 6 samples.

Results

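Genes of glycolysis and of the response to low oxygen were followed in the epidermis of a mouse model of Harlequin Ichthyosis, an inherited disorder in which the skin is covered by thick plates and its barrier fails. The group was a list of 34 genes: glucose transport, the enzymes that turn glucose into lactate, lactate export, the oxygen sensors and well known targets of the hypoxia-inducible factor. A gene was measured if a probe carrying its name was detected (detection score above 0.95) on 3 or more arrays, and 26 of the 34 met this rule, among 11354 genes measured in all. The rule did not use the difference between the groups, whereas the list was chosen with earlier results of these data known. Hk2, Gpi1, Eno1 and Ldhb had no named probe here and were not analysed. The probes of Slc16a1, Slc16a3, Car9 and Bnip3 were each detected on at most 1 of the 6 arrays. These 4 genes encode 2 lactate carriers, a cell-surface carbonic anhydrase and a mitophagy receptor, so lactate export and 2 standard hypoxia markers had no usable level.

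Total RNA came from epidermal peels of back skin of E17.5 embryos of the C57BL6 strain. The mutant group held 3 arrays and the wild-type group 3 arrays, called biological replicates in the labels. All peels had been loosened with 5 mM EDTA for 1 hour at 37 °C, and no other treatment is named. The labels give neither the mutated gene nor the allele of the mutants, nor the sex or litter of any embryo.

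Mean raw intensity was between 260 and 463 per array and 17159 to 18422 of 45281 probes were detected. Keratinocyte markers of both compartments were present: 7 of 7 basal and 6 of 7 suprabasal genes were measured. All 10 skeletal muscle markers and 7 of 8 dermal fibroblast markers were measured as well, so the peels held RNA of more than the epidermis. Some marker lists had medians away from 0. With all arrays, only the macrophage and Langerhans cell list had mean levels without overlap between the groups. With wild-type array 3 set aside, the basal keratinocyte list (lower in mutants) and the neutrophil list (higher in mutants) had no overlap either. Of the macrophage and Langerhans cell markers 8 of 10 listed were measured (Cd207, the Langerhans cell langerin, was not), all 8 lay above 0 with a median of 0.60 (0.48 without wild-type array 3), and their mean level per array was 8.06 to 8.34 in mutants and 7.26 to 7.78 in wild type. Of the 7 basal markers 6 lay below 0 (median -0.13, mean levels 10.98 to 11.03 in mutants and 10.97 to 11.38 in wild type). Without that array all 7 did (median -0.25), and 4 of 7 were lower in all mutants, beside 11.9% of all genes. Of 8 hair follicle markers 5 were measured and 4 lay below 0 (median -0.61, mean levels 6.40 to 7.52 in mutants and 6.87 to 8.38 in wild type), and all 4 kept without that array (median -0.30). Melanocyte markers (4 of 6 measured) had a median of -0.37, and -0.42 without that array. Endothelial markers (8 of 8 measured) had a median of -0.22, and -0.05 without it. The medians of dermal fibroblast and skeletal muscle markers were 0.49 and 0.44, and -0.02 and 0.01 without that array. That of neutrophil markers (3 of 8 measured) was 0.03, and 0.72 without it. The part of these lists in the values of the members was not tested. Of the 6 arrays, wild-type array 3 resembled the others least, with Pearson's r across probes of 0.836 to 0.891 against them, whereas every other pair of arrays reached at least 0.965 (probes are not independent replicates). Results are therefore given with and without it. Levels are normalized log2 intensities, comparable between arrays for a probe and not between probes, and differences are mutant minus wild type on that scale. In such bulk samples fewer cells of a type and less RNA per cell cannot be told apart.

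Glycolysis splits glucose into pyruvate in the cytosol and yields ATP without oxygen, and lactate dehydrogenase then restores the NAD+ it consumes. When oxygen is scarce, the prolyl hydroxylases that mark HIF-1 alpha for destruction slow down, and HIF-1 binds a short core in its target genes that reads ACGTG or GCGTG. Targets include glucose transporters, most glycolytic enzymes, Vegfa and the hydroxylase Egln3 itself. The epidermis has no blood vessels of its own, and its keratinocytes are known to make much lactate.

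The core was searched on both strands in RefSeq windows of 300 bases (250 before to 50 after the gene start, build GRCm38.p6), found for 32 of the 34 listed genes, 1 window a gene (the first listed). ACGTG or GCGTG was in 27 of the 32 windows (84.4%), compared with 43.8% of 27025 promoters of all genes. The windows of the listed genes were also richer in CpG, with a median of 22.5 CpG and 65.2% GC, compared with 7 CpG and 52.7% GC over all genes. The part of base composition in the motif count was not tested, and a match is not a binding site. Windows are shown for the members whose groups were fully separated (Pfkp, Egln3, Ddit4), for Pgk1, whose probes disagreed most between arrays, and for Ldha, whose window held the most matches. Capitals mark ACGTG and GCGTG on either strand, so that CACGT and CACGC are the same cores read from the other strand.
Pfkp, chr13:6648722-6649021, minus strand: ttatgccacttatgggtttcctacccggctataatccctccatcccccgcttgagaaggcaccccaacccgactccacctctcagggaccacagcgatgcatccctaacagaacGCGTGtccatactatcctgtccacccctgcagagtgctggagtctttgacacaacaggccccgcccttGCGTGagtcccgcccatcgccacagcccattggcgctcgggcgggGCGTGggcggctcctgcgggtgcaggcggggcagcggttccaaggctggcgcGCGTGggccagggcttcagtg
Egln3, chr12:54203825-54204124, minus strand: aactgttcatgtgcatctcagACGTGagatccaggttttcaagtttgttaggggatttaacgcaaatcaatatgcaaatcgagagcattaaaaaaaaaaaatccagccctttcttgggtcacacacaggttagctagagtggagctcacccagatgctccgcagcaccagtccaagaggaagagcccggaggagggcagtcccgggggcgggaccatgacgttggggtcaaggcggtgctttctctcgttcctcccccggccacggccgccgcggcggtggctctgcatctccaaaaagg
Ddit4, chr10:59951721-59952020, minus strand: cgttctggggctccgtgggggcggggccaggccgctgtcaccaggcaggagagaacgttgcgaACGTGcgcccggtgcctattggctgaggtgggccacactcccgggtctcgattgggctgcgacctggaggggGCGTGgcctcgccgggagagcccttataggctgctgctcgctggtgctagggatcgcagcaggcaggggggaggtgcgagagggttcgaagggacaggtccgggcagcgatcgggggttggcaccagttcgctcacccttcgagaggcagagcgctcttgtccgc
Pgk1, chrX:106186850-106187149, plus strand: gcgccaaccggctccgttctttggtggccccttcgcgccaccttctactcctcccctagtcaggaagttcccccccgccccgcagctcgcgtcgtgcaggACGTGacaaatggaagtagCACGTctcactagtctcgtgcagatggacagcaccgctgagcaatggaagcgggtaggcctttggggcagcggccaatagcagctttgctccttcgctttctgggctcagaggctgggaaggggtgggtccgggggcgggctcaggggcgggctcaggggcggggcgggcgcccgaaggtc
Ldha, chr7:46845554-46845853, plus strand: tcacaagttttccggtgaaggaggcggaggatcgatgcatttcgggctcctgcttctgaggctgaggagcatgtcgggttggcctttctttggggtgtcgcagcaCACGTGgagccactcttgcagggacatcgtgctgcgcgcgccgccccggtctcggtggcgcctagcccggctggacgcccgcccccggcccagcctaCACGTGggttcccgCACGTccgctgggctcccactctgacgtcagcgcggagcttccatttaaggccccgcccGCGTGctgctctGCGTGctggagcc

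The Pfkp window held 4 GCGTG cores and no ACGTG. Egln3 had a single ACGTG, and Ddit4 had 1 of each core. Pgk1 had 2 ACGTG cores, and Ldha had 5 matches to ACGTG and 2 to GCGTG, where the palindrome CACGTG counts on both strands. Number and kind of core thus differed among the 3 separated members.

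None of the 26 members passed an adjusted p of 0.05 in limma (smallest 0.756, for Ddit4), and the background was the same: 0% of 18358 probes were called. At an unadjusted p under 0.05 there were 2 members, Egln3 and Ddit4, where 6.34% of all genes met that level. The groups were separated, with no overlap of their values, for 3 members (11.5%), beside 14.2% of all genes. Pfkp and Egln3 were higher in all mutants (5.96% of all genes were) and Ddit4 was lower in all mutants (8.24% of all genes), so the share separated was near the background. Most differences were positive: 22 of 26 lay above 0 with a median of 0.17, while 44.4% of all genes lay above 0 with a median of -0.06. Without wild-type array 3, 17 of 26 lay above 0 (50.1% of all genes) and the median was 0.10 (0.00 for all genes). With median scaling in place of quantile normalization 16 of 26 lay above 0 with a median of 0.06, while the median of all genes was -0.17. The 13 glycolysis members had a median of 0.17 and the 13 other members one of 0.16. Without wild-type array 3 these medians were 0.13 and 0.05.

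**Figure D1:**
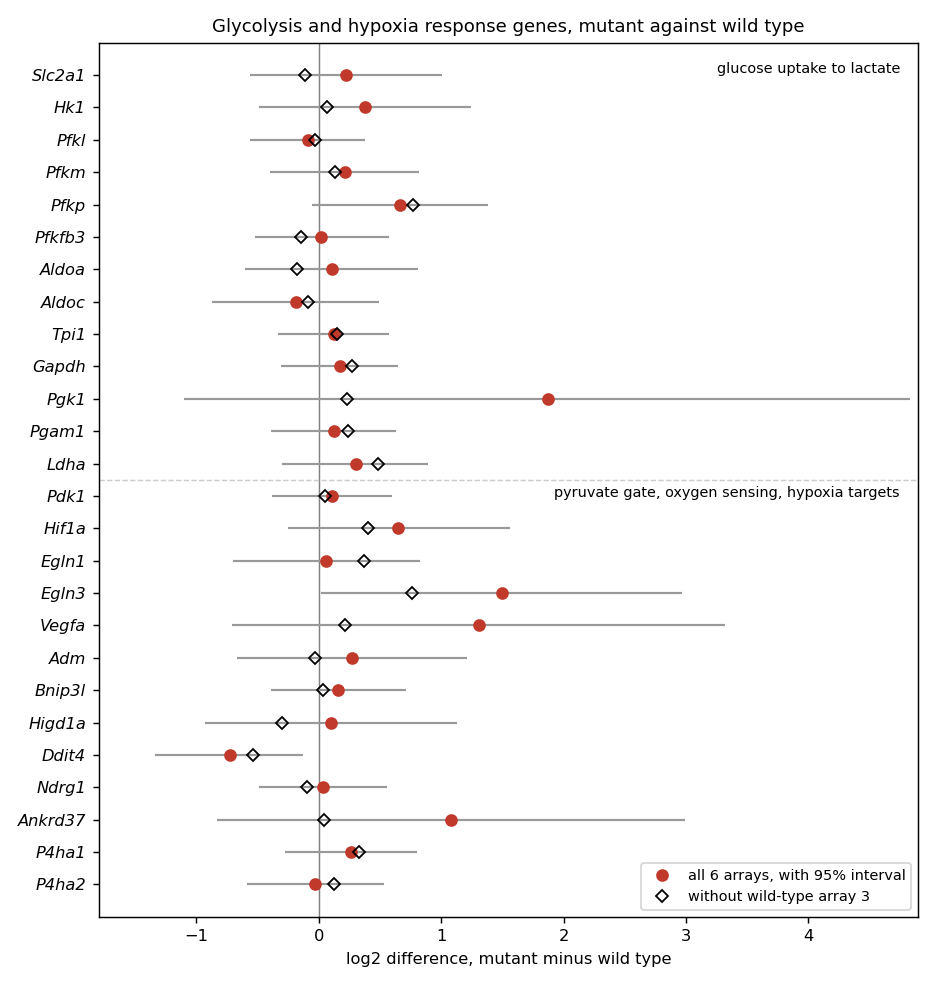
Log2 difference, mutant minus wild type, of the 26 measured genes, each by its probe with the highest mean level. Filled circles with 95% intervals use all 6 arrays and open diamonds leave out wild-type array 3; the wide intervals of Pgk1, Vegfa, Ankrd37 and Egln3 go with diamonds far to the left of the circles.

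The precision allowed modest limits. By the brightest probe, the 95% interval lay wholly within a 2-fold change in either direction for 15 of 26 members, and without wild-type array 3 this held for 21. An absolute difference above 1 by the brightest probe was seen for 4 members with all arrays (Pgk1, Egln3, Vegfa and Ankrd37) and for 0 without that array. Other kept probes exceeded 1 as well: with all arrays those of Pfkp (1.17), Pgk1 (1.01) and Ndrg1 (1.70), and without that array those of Pfkp (1.46) and Pgk1 (1.36).

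The brightest probes of Pgk1, Egln3, Vegfa and Ankrd37 shared a low value on wild-type array 3. Pgk1, the kinase of the earlier of the ATP-yielding steps, read 11.87, 11.99 and 11.59 in mutants, against 11.30, 11.88 and 6.67 in wild type (probe ILMN_2651886). Wild-type array 3 alone was far below the rest, and the groups overlapped. The difference was 1.87 (SE 1.26, limma adjusted p = 0.791), and 0.23 without that array (0.821). Vegfa, the main angiogenic factor, read 9.03, 8.74 and 8.54 in mutants, against 8.65, 8.47 and 5.27 in wild type. Again the third wild-type array was far below the rest, and the difference of 1.31 (SE 0.85) became 0.21 without it. Ankrd37, an ankyrin repeat protein induced by HIF-1, read 8.83, 8.88 and 8.41 in mutants, against 8.60, 8.72 and 5.55 in wild type. Its difference was 1.08 (SE 0.81) with the array and 0.04 without.

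Where such a member had several kept probes, the low value was on 1 of them. Of the 41 kept probes of the members, 6 lay more than 2 log2 units below the median of the other arrays on wild-type array 3, beside 7.77% of all 18358 kept probes, while 0 of the 41 did on the other arrays. Pgk1 deviated by -5.20 on its bright probe and by -0.31 on ILMN_2797973. For Ndrg1, a hypoxia-induced protein of differentiating epithelium, ILMN_1250195 deviated by -5.02 and ILMN_2646166 by -0.37. ILMN_2646166 carries the symbol Ndrl in the array annotation and was assigned to Ndrg1 through its accession. The Vegfa probes deviated by -3.38 and 0.97, and those of Egln3 by -2.52 and 0.96. Tpi1, triose phosphate isomerase, had probes at 0.07, -0.20 and -2.26. Of the 12 members with several kept probes, these 5 had deviations more than 2 log2 units apart on that array, where 19.1% of 3551 genes with several probes did. On each other array 0 of the 12 members did.

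**Figure D2:**
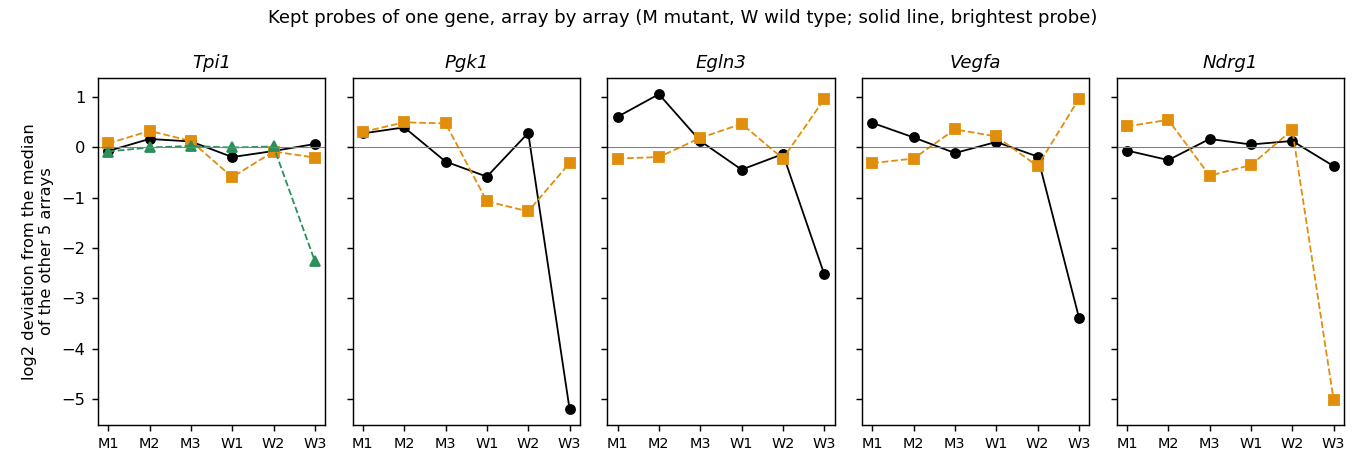
Deviation of each kept probe from the median of the other 5 arrays, in log2 units, for the 5 members whose probes lay over 2 units apart on wild-type array 3 (W3). M1 to M3 are the mutant arrays, W1 to W3 the wild-type arrays, lines join the values of 1 probe, and in each panel 1 probe falls at W3, to between -5.20 and -2.26, while the others lie between -0.37 and 0.97.

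Glucose entry and its capture by phosphorylation showed no difference beyond the spread. Slc2a1, the glucose transporter GLUT1, read 11.26, 11.26 and 10.90 in mutants, against 11.04, 11.45 and 10.26 in wild type. The groups overlapped, at a difference of 0.22 (SE 0.33, limma adjusted p = 0.841), and without wild-type array 3 the difference was -0.11. Hk1, a hexokinase that binds mitochondria, read 5.76, 5.78 and 5.40 in mutants, against 5.15, 6.02 and 4.64 in wild type, where array 3 did not detect it. Its difference was 0.38 (SE 0.37), and 0.07 without that array.

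The phosphofructokinase step, which commits sugar to glycolysis, held the only glycolysis member whose groups were separated over all 6 arrays by its brightest probe. Pfkp, the platelet-type isoform, read 9.22, 9.86 and 9.15 in mutants, against 8.28, 8.99 and 8.98 in wild type (ILMN_1237695). Every mutant array lay above every wild-type array, by a narrow margin between mutant array 3 and wild-type array 2. The fold was 1.58 (95% interval 0.959 to 2.61, limma adjusted p = 0.791). ILMN_2673233, another probe of Pfkp, read 7.41, 7.57 and 7.10 in mutants, against 5.37, 6.47 and 6.73 in wild type. These groups did not overlap either, and the fold was 2.25 (1.22 to 4.17, adjusted p = 0.693). Both probes stood further apart without wild-type array 3, at 0.77 and 1.46, and ILMN_2673233 passed the threshold with array weights, where 0.703% of all probes were called (adjusted p = 0.0456, against 0.108 to 0.998 in the other alternatives tested). By title prefix, a code in the sample titles shared by 4 arrays (bo20) or 2 (bo12), Pfkp stood at 0.91 and 0.17 by the brighter probe and at 1.57 and 0.37 by the other.

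The other isoforms gave no such separation. Pfkl, the liver type, differed by -0.09 (SE 0.20) and by -0.48 on its other probe, where mutant array 3 was not detected. Pfkm, the muscle type, differed by 0.21 (SE 0.26), with 0.04 and 0.58 on its remaining probes. The 10 muscle markers had mean levels per array of 12.48 to 13.19 in mutants and 11.19 to 12.91 in wild type, and their part in the Pfkm values was not tested. Pfkfb3, which makes the activator fructose 2,6-bisphosphate, was dim on every array (4.56 to 5.15), with wild-type array 3 below detection, and differed by 0.02 (SE 0.23).

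**Figure D3:**
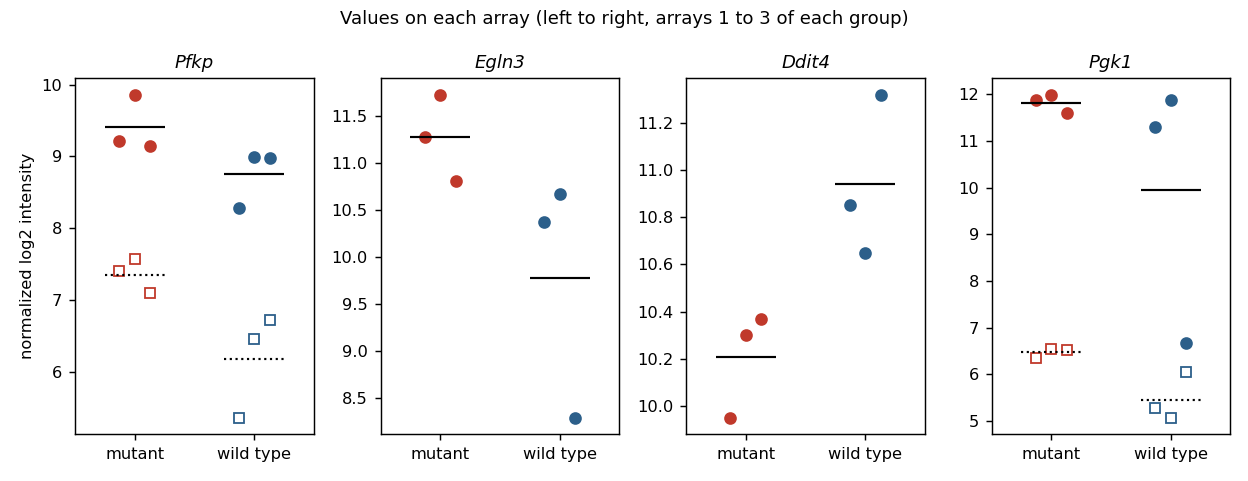
Normalized log2 intensity on each array for Pfkp, Egln3, Ddit4 and Pgk1, mutant arrays in red on the left and wild-type arrays in blue on the right. Filled circles are the probe with the highest mean and open squares, drawn for Pfkp and Pgk1 only, another probe. Solid and dotted lines mark their group means. The other kept probe of Egln3, ILMN_1231847, which differed by -0.41, is not drawn. Each vertical axis has its own range, and the lone low circle of Pgk1 is wild-type array 3 at 6.67.

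From aldolase to phosphoglycerate mutase the measured enzymes other than Pgk1 gave small differences. Aldoa, the main aldolase of muscle and many other tissues, differed by 0.11 (SE 0.30) and Aldoc, the brain type, by -0.19 (SE 0.29). Tpi1 read 13.72, 13.89 and 13.84 in mutants, against 13.60, 13.72 and 13.79 in wild type, a difference of 0.12 (SE 0.19), and of -0.18 with median scaling. Its dimmer probe ILMN_1231447 separated the groups, with 7.70, 7.96 and 7.75 in mutants and 7.11, 7.62 and 7.50 in wild type (0.39, SE 0.22). Gapdh, the NADH-making dehydrogenase, read 13.09, 13.20 and 13.22 in mutants, against 12.83, 12.97 and 13.20 in wild type. The groups overlapped through wild-type array 3, and the difference was 0.17 (SE 0.20), or -0.02 with median scaling. Pgam1, phosphoglycerate mutase, differed by 0.12 (SE 0.22), with 0.17 on a probe that mutant array 3 and wild-type array 3 did not detect. The probes of Tpi1, Gapdh and Ldha read near the highest value on the arrays (14.61), where a change can be compressed, and Gapdh has many processed copies in the mouse genome that could share its signal.

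Pgk1 differed between its probes. ILMN_2797973 read 6.35, 6.54 and 6.52 in mutants, against 5.27, 5.07 and 6.04 in wild type. The groups were separated, and the wild-type value nearest to the mutants was that of array 3, on which the bright probe had dropped. The fold was 2.01 (95% interval 1.25 to 3.23) and did not pass over all probes (limma adjusted p = 0.578; 0.432 with the replicate number as a block). Without wild-type array 3 it was 2.56-fold higher in mutants and passed (adjusted p = 0.0464), the single member probe of 40 to do so, beside 0.275% of all probes. Within bo20, whose arrays are all among these, it passed at 0.0392, and 118 of all 18358 kept probes were called. Over the alternatives its adjusted p ranged from 0.0207, with array weights, to 0.998. The bright probe stood at 0.23 on the same 5 arrays, 1.17-fold. The difference between the probes was not tested, and probe positions within the transcript were not used here.

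Ldha, the subunit of lactate dehydrogenase that favours lactate, read 13.56, 13.43 and 13.61 in mutants, against 12.84, 13.25 and 13.62 in wild type. Wild-type array 3 alone reached the mutant values. The difference was 0.30 (SE 0.25, limma adjusted p = 0.792), and without that array 0.48 (0.484), with no overlap. Gapdh, Tpi1, Pgam1 and Pfkp also had no overlap without that array, which made 6 of 26 members higher in all mutants with Egln3 (23.1%, beside 14.1% of all genes) and 1 lower (3.85%, beside 11.9%), 26.9% together beside 26.1%. Of these 6, 5 were among the 13 glycolysis members, and none of the 26 passed the adjusted threshold on these arrays by its brightest probe. Pdk1, which shuts pyruvate out of the mitochondrion, differed by 0.11 (SE 0.21).

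Among the oxygen sensors Egln3, the prolyl hydroxylase PHD3 and itself a HIF target, had the widest gap. It read 11.28, 11.73 and 10.81 in mutants, against 10.37, 10.67 and 8.29 in wild type (ILMN_2605819). The groups were separated, the closest pair being mutant array 3 and wild-type array 2. The fold was 2.82 (95% interval 1.01 to 7.86, limma adjusted p = 0.791) and 1.69 without wild-type array 3 (adjusted p = 0.462). Over the alternatives the log2 difference was 0.54 to 2.52 and the adjusted p 0.146 to 0.998. ILMN_1231847, a dim probe detected on 1 mutant and 2 wild-type arrays, pointed the other way at -0.41 (SE 0.29). Hif1a, the oxygen-regulated subunit of HIF-1, read 7.21, 6.96 and 6.15 in mutants, against 6.08, 6.68 and 5.60 in wild type, with overlap (0.65, SE 0.38). Since HIF-1 alpha is controlled mainly through protein decay, its transcript is a limited measure of its activity. Egln1, the principal hydroxylase PHD2, differed by 0.06 (SE 0.32), with its 3 probes at 0.06, 0.05 and -0.22. Without wild-type array 3, where all 3 probes were higher than on the other arrays by 0.63 to 1.04, they stood at 0.37, 0.49 and 0.15.

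Ddit4, an inhibitor of mTORC1 induced by low oxygen, glucocorticoids and other stresses, was the member with the smallest p and the only one lower in all mutants, a separation that was absent from the authors' log2 values. It read 9.95, 10.30 and 10.37 in mutants, against 10.85, 10.65 and 11.32 in wild type. Every mutant value was below every wild-type value. Its difference of -0.73 (SE 0.26, 95% interval -1.34 to -0.13) did not pass (limma adjusted p = 0.756; 0.173 to 0.998 over the alternatives). It kept its direction under all alternatives, from -0.96 to -0.45, and was -0.54 without wild-type array 3, -0.62 within bo20 and -0.96 within bo12.

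The remaining hypoxia targets lay near 0. Adm, the vasodilator adrenomedullin, and Higd1a, a respiratory chain protein, were each detected on 4 arrays, with mutant array 3 and wild-type array 3 below detection. They differed by 0.27 (SE 0.40) and 0.10 (SE 0.43). Bnip3l, a mitophagy receptor that also clears mitochondria from red cells, differed by 0.16 (SE 0.23), beside 6 measured erythroid markers with a median of 0.04. Ndrg1 differed by 0.03 (SE 0.22) on its representative probe, and by 1.70 with and 0.08 without wild-type array 3 on the probe that dropped there. P4ha1 and P4ha2, which hydroxylate collagen prolines, differed by 0.26 (SE 0.23) and -0.03 (SE 0.24). The 7 measured fibroblast markers had mean levels of 11.13 to 11.83 in mutants and 9.86 to 11.57 in wild type, and their part in the P4ha1 and P4ha2 values was not tested. The P4ha1 probe ILMN_1234565 went the other way: 6.56, 6.52 and 6.22 in mutants lay below 6.77, 6.83 and 6.78 in wild type (-0.36, SE 0.20). The P4ha2 probes gave -0.03 and -0.26. Of the 12 members with several probes, 8 had all probes on the same side of 0 and 4 (Egln1, Egln3, Vegfa and P4ha1) did not. Only 1 probe of Egln3 was kept without wild-type array 3, and of the 11 members left 7 had all probes on the same side while Tpi1, Pgam1, Ndrg1 and P4ha1 did not.

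Further genes of the pathway, 101 in 6 lists of which 72 were measured, gave 0 calls in limma over all probes and 4 at an unadjusted p under 0.05, Hmox1, Siah2, Edn1 and Rpe (5.56%, beside 6.34% of all genes). Their groups did not overlap for 5 higher and 7 lower (16.7%, beside 14.2%). The median was 0.06, with 40 above 0 and 32 below. In other glycolysis and gluconeogenesis genes the median was 0.14 (15 measured). Pkm, the pyruvate kinase of most tissues, read 13.10, 12.82 and 12.87 in mutants, against 12.47, 12.73 and 12.99 in wild type, and differed by 0.20 (SE 0.22), or 0.34 without wild-type array 3. Eno3, the muscle enolase, read 11.60, 12.31 and 11.87 in mutants, against 11.47, 11.71 and 10.68 in wild type (0.64, SE 0.34). Muscle markers had a median difference of 0.44, 10 of 10 above 0, and of 0.01 without wild-type array 3, where Eno3 stood at 0.33. Their part in Eno3 was not tested. Fbp1, a gluconeogenic phosphatase, the transporter Slc2a8 and the ADP-dependent glucokinase Adpgk differed by 0.42, -0.39 and -0.38, and by 0.82, -0.11 and -0.24 without wild-type array 3. Fbp1 was dim and detected on 4 arrays, with its lowest values, 4.57 and 4.41, on wild-type arrays 1 and 2. Without wild-type array 3 a low wild-type level may thus be built into its selection, and its 0.82 is no independent support. Genes of pyruvate entry had a median of 0.00 (9 measured), from Dlat at 0.31 and Dld at 0.30, both parts of pyruvate dehydrogenase, and Pdp2 at 0.20, its phosphatase, to Pdk3 at -0.16, an inhibiting kinase. Dlat stood at 0.63, Dld at -0.16, Pdp2 at 0.43 and Pdk3 at -0.26 without wild-type array 3, and another Pdp2 probe at -0.24 with all arrays and -0.14 without.

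All 6 measured genes of the pentose phosphate pathway, the branch that makes NADPH and ribose, lay below 0 (median -0.31), as did 6318 of 11354 genes. The 5 kept without wild-type array 3 had a median of -0.18, with Pgls, a lactonase, at 0.09 and Pgd, a dehydrogenase, at 0.00. Within bo20 1 of the 6, Pgls, lay above 0. Rpe, ribulose phosphate epimerase, was detected on 0 of 3 mutant arrays and on 3 of 3 wild-type arrays. It read 4.76, 4.38 and 4.62 in mutants, against 6.55, 6.89 and 6.89 in wild type, at least 3.97-fold lower in mutants (limma adjusted p = 0.0818). The bound sets the wild-type mean against the higher of the probe's own value and the lowest detected signal on each mutant array. Rpe was kept by the detection filter through the wild-type arrays alone, so a low mutant level was built into its selection and its p is no independent support. Another Rpe probe was detected on no array. Rpia, the isomerase beside it, Tkt, a transketolase, and Taldo1, a transaldolase, differed by -0.48 (SE 0.32), -0.31 (SE 0.20) and -0.31 (SE 0.27), and by -0.29, -0.21 and -0.18 without wild-type array 3. Only Tkt among these had no overlap, with 10.87, 10.93 and 10.95 in mutants, against 11.10, 11.15 and 11.42 in wild type. Glycogen genes had a median of 0.27 (8 measured). Ppp1r3c, a glycogen targeting subunit, separated the groups at 0.39 (SE 0.21), and Gyg, Pygm and Gys1, which prime, degrade and build glycogen, differed by 0.71, 0.47 and 0.34 with overlap. Without wild-type array 3, Gyg stood at 0.07 (another probe at -0.31), Pygm, the muscle phosphorylase, at 0.12, Gys1 at 0.58 and Ppp1r3c at 0.30. Gys1 was dim and detected on 4 arrays, with its lowest values, 4.34 and 4.68, on wild-type arrays 1 and 2. A low wild-type level may thus be built into its selection without wild-type array 3, and its 0.58 is no independent support.

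**Figure D4:**
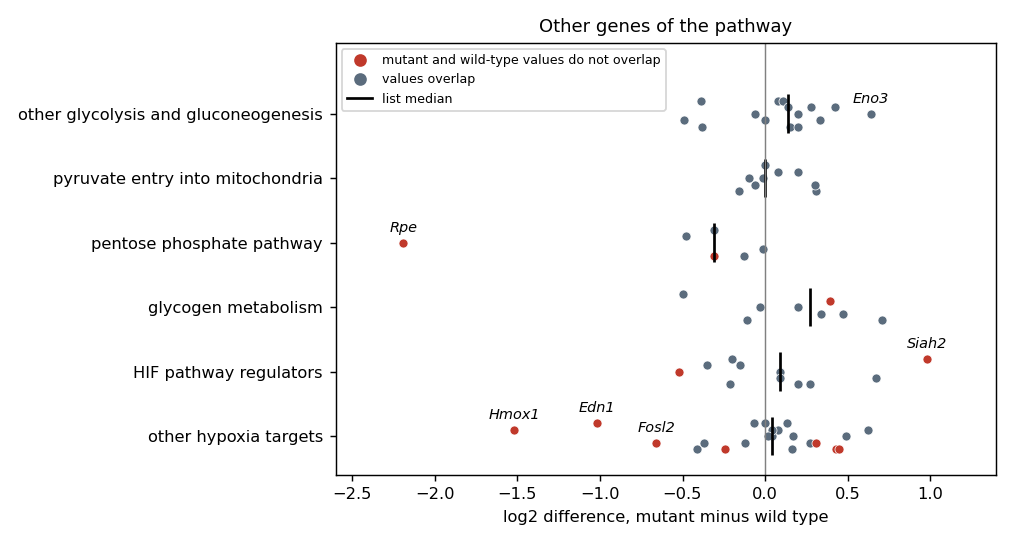
Log2 difference, mutant minus wild type, of 72 measured genes in 6 lists of related pathways, 1 point a gene by its probe with the highest mean. The point of Bhlhe40, among other hypoxia targets, lies beyond the right edge at 1.55 (0.05 without wild-type array 3) and is not visible. Black bars are list medians and red points are genes whose groups were separated; Rpe lies furthest to the left at -2.19, a fitted value for a gene not detected in any mutant array.

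Regulators of HIF had a median of 0.09 (11 measured). Siah2, a ubiquitin ligase that removes prolyl hydroxylases such as PHD3, read 6.02, 6.18 and 5.94 in mutants, against 4.98, 5.43 and 4.78 in wild type. Every mutant value was higher, at 0.98 (SE 0.24, limma adjusted p = 0.451), and 0.89 without wild-type array 3 (0.239). The Siah2 probe was detected on 5 arrays, and its wild-type values were close to background. Kdm3a, a histone demethylase induced by hypoxia, lay lower in all mutants at -0.52 (SE 0.29), and its difference was -0.24 without that array. The other Kdm3a probes stood at -0.29 and 0.87, and at -0.01 and -0.26 without it. Cited2, a competitor of HIF for its coactivator, and Siah1a, a relative of Siah2, differed by 0.67 (SE 0.45) and -0.35 (SE 0.22), and by 0.16 and -0.27 without wild-type array 3. The other Cited2 probes lay on the opposite side, at -0.40 and -0.71 with all arrays and at -0.55 and -0.60 without that array. Epas1 (HIF-2 alpha), Arnt (the shared partner subunit) and Vhl (which tags HIF alpha for decay) differed by -0.15, -0.21 and 0.20, all with overlap, and by 0.07, 0.05 and -0.31 without wild-type array 3. The other Arnt probes disagreed, at -0.25 and 0.50. Other hypoxia targets had a median of 0.04 (23 measured) and went both ways. Hmox1, heme oxygenase, read 5.90, 6.95 and 7.07 in mutants, against 8.57, 8.07 and 7.86 in wild type, and Edn1, the vasoconstrictor endothelin, 6.55, 6.23 and 6.84 in mutants, against 7.42, 7.25 and 8.01 in wild type. Both were lower in all mutants, at -1.52 (SE 0.37, adjusted p = 0.451) and -1.02 (SE 0.28, 0.547), and at -1.67 and -0.80 without wild-type array 3. Fosl2, an AP-1 factor, differed by -0.66 (SE 0.31) without overlap, and by -0.34 without wild-type array 3. Ak4, a mitochondrial adenylate kinase, was higher in all mutants by 0.43 (SE 0.22), and by 0.30 without that array.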

How the data were processed

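Total RNA (500 ng per sample) had been amplified, biotin-labelled and hybridised to Illumina bead arrays, per the labels' protocols. The submitters' processing notes name BeadStudio and give no version. The authors deposited raw bead intensities for 45281 probes, without background subtraction, and beside each a fraction that rises with brightness, read as 1 minus the detection p. They also deposited log2 values, which matched log2 intensity minus the array's 75th percentile and minus the probe's median over arrays (largest difference 2.3e-06). Here the intensities were background-corrected with normexp (nec, offset 16), log2-transformed and quantile-normalized (limma 3.58.1, R 4.3.3). Probes with a detection score above 0.95 on 3 or more arrays were kept (18358). Symbols were updated through Entrez identifiers (28620 probes) or accessions (2637), with the gene table of GRCm38.p6 used for names, and 9497 probes were unnamed. A gene was represented by its kept probe with the highest mean.

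Mutant was compared with wild type by limma's moderated linear model (lmFit, eBayes; two-sided p, adjusted by Benjamini-Hochberg over all kept probes, threshold 0.05), without covariates. On simulated data the fit called a share of 0.96 of 8-fold changes, with 6 false calls. Smaller changes were simulated too, but their share is not given, so 0.96 does not describe the power for differences as small as those of most members. The simulated spreads left out wild-type array 3 and no array was made outlying, so the fit with such an array was not tested. Deviations from the group means were positively correlated between replicates with the same number (0.27, 0.46 and 0.54), and a replicate block was run. The labels state no such pairing. Deviations cancel within each group and arrays with different numbers were not compared, so these correlations cannot show a pairing by number. No pair of arrays shared more than 0.517% of raw values. The number of arrays, 3 per group, limits the precision, and since separate embryos are implied only by the words biological replicate, p-values measure the spread between these samples. The members, lists and tests were chosen with earlier results of these data known. All measured members are named, and from each list of related genes the 4 with the smallest p, with Pkm, Epas1, Arnt and Vhl whatever their values. Probes other than the representative were singled out after their values were seen.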

Additional observations from a re-analysis of the deposited data

How the results depend on the processing

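No member was called by limma, by its representative probe, under any of the alternatives run. Among the other probes of members, ILMN_2797973 of Pgk1 was called with array weights, within bo20 and without wild-type array 3, and ILMN_2673233 of Pfkp with array weights. The replicate block called 0 probes, left the median of the members at 0.17 and changed no call. Over all probes the count of calls was 1 without background correction, 5 with median scaling, 6 with the authors' log2 table, 48 with the title prefix as a block, 118 within bo20 and 129 with array weights. Leaving out 1 array gave 0 to 51 calls: 49 without wild-type array 3, and 51 without it when the probes kept over all 6 arrays were used. Among the further pathway genes there was 1 call with median scaling, array weights, the title prefix as a block and within bo20. This was Rpe, which the filter kept through the wild-type arrays alone. Without wild-type array 3 Rpe was not kept and there were 0 calls, and 1 when the probes kept over all 6 arrays were used (0 to 1 with 1 array left out). The median of the glycolysis members was 0.04 with median scaling and 0.32 with the authors' table, while that of all genes was -0.17 and 0.01. In the authors' log2 values, 5 members were higher and 0 lower in all mutants. With 1 array left out, 2 to 7 were higher and 1 to 2 lower, 17 to 22 lay above 0 and the median of the members was 0.10 to 0.25. The background share also moved with the arrays used: 26.1% of all genes were separated without wild-type array 3, beside 14.2% with all arrays. For the authors' table and the other arrays left out this share is not given here. The counts of separated members are therefore not read as a result about the members. The settings for the pathway lists, the other probes and the counts, and the fit without wild-type array 3 on all kept probes, were chosen after seeing the data.

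Differences whose sign turned, none of them called, were these. With array weights they were Pfkfb3 -0.20, Aldoa -0.15, Higd1a -0.03, Ndrg1 -0.12, P4ha2 0.06, Epas1 0.00, Arnt 0.08 and Vhl -0.12. With the authors' table they were Hk1 -0.05, Pfkl 0.16, Pfkfb3 -0.24, Aldoc 0.06, Adm -0.09, Higd1a -0.14, P4ha2 0.22, Fbp1 -0.03, Pdk3 0.10, Dld -0.03, Gys1 -0.10, Arnt 0.04 and Vhl -0.06. With the mean of a gene's probes they were Egln1 -0.03, P4ha1 -0.05, Pdp2 -0.02, Kdm3a 0.02, Cited2 -0.15 and Arnt 0.01. With median scaling they were Pfkfb3 -0.45, Aldoa -0.03, Tpi1 -0.18, Gapdh -0.02, Adm -0.12, Higd1a -0.28, Dld -0.04, Gys1 -0.08 and Vhl -0.09. Within bo12 (1 array a group, no test) they were Ldha -0.02, Egln1 -0.58, Dlat -0.15, Pdp2 -0.32, Gys1 -0.13 and Pkm -0.12. Within bo20 they were Pfkfb3 -0.21, Aldoa -0.12, Ndrg1 -0.19, P4ha2 0.01 and Arnt 0.10. With 1 array left out the ranges were Slc2a1 -0.11 to 0.49, Pfkfb3 -0.15 to 0.16, Aldoa -0.18 to 0.28, Aldoc -0.41 to 0.01, Egln1 -0.23 to 0.37, Adm -0.03 to 0.59, Higd1a -0.30 to 0.42, Ndrg1 -0.10 to 0.13, P4ha2 -0.15 to 0.12, Pdk3 -0.26 to 0.03, Dld -0.16 to 0.66, Epas1 -0.34 to 0.07, Arnt -0.37 to 0.05 and Vhl -0.31 to 0.58. The causes were not tested. Of the members' values 308 of 334 kept their sign with all arrays or 1 prefix, and 159 of 182 with 1 array left out.

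The number of arrays limits these results: 95% intervals of 15 of 26 members, by the brightest probe, lay within a 2-fold change, and dim probes near background have compressed differences.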
